A study of Mus musculus with 8 samples.

Results

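Genes that build the ribosome in the nucleolus were compared between activated CD4 T cells labelled wild type and cells labelled as deleted for Bcl6. The set was a list of 48 gene symbols, drawn up by function with earlier results of these data known, and a member was read from a probe set (a group of array probes summarised to 1 value) that carried its symbol alone. Of the 48 members, 46 had such a probe set, among 19938 genes with one in all. Noc2l and Npm3 were not listed in the probe table used and are not analysed here. All 46 lay above the filter on low values in all 8 arrays and were tested within the fit over 11926 genes.

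The samples were sorted naive CD4 T cells of wild-type mice (WT, 4 arrays) and of mice with a T cell-specific conditional deletion of Bcl6, a transcriptional repressor (KO, 4 arrays). All were kept in culture for 24 hours with anti-CD3 and anti-CD28 antibodies, which stimulate the T cell receptor and its co-receptor, with blocking antibodies to IL-4, IFNg and TGFb, and with IL6 and IL21. The labels call the cells follicular helper T (Tfh) cells. The Cre driver, the strain and the age of the mice are not given in the sources used here. Nothing says that each array stands for its own mouse or culture, so a p-value here reflects only how far these arrays spread, and that spread may be technical.

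Bcl6 itself read 8.61, 8.91, 8.78 and 8.79 in WT replicates 1 to 4 and 9.08, 9.15, 9.18 and 9.19 in KO replicates 1 to 4 (log2 signal), higher where it should have been deleted (difference 0.38, limma adjusted p = 0.0303). The position of its only named probe set relative to the deleted part is not given in the sources used here, so this value cannot serve as a check of the labels, and directions below are those of the arrays as labelled. KO replicate 1 stood apart from the other arrays in the series as a whole, and results that rest on it are given with and without it. All 8 of the CD4 T cell markers on the array passed the filter. Of them 5 lay above 0 and 3 below, and none passed the test. The groups of Thy1 did not overlap, with KO above WT (0.24, limma adjusted p = 0.123). Of 10 Tfh markers, 9 passed the filter. Of these 9, 5 lay above 0, and of them Bcl6 and Cd200 (0.34, limma adjusted p = 0.038) passed the test as higher. Sh2d1a (0.285), Btla (0.23) and Il21 (0.115, limma adjusted p = 0.268, groups not overlapping) lay above 0 and did not pass. The other 4 lay below 0 and did not pass. They were Pdcd1 (-0.215, limma adjusted p = 0.0931, groups not overlapping), Cxcr5 (-0.26), Tox2 (-0.22) and Icos (-0.05). Of the B cell markers on the array 2 of 9 passed the filter (Cd79b and Ighm), and of the myeloid markers 3 of 12 (Cst3, Cd68 and Tyrobp), while Ms4a1, Cd79a and Csf1r lay under it in all 8 arrays. Markers of CD8 T cells had mean signals from 8.61 to 9.004 in the WT-labelled and from 8.39 to 8.62 in the KO-labelled arrays, and those of NK and cytotoxic cells from 6.96 to 7.28 and from 6.88 to 6.99; of the 8 NK genes 3 passed the filter. No gene of the CD8 and NK lists passed the test, but 4 of the tested ones had groups that did not overlap, all lower in the KO-labelled arrays: Nkg7 (-0.89, limma adjusted p = 0.0947), Crtam (-0.54, 0.0763), Ctsw (-0.52, 0.0696) and Prf1 (-0.44, 0.102). The other tested genes of these lists went both ways: Eomes (-0.37) and Cd8a (-0.04) lay below 0, and Cd8b1 (0.03) and Gzmb (0.35, limma adjusted p = 0.385) above it. In the myeloid list the groups of Cst3 did not overlap (-0.16, limma adjusted p = 0.118). The part of these markers in the values below was not tested.

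Ribosomes are made in the nucleolus, where RNA polymerase I copies the ribosomal RNA genes and small nucleolar ribonucleoproteins guide the chemical modification and cutting of the transcript. The small-subunit processome then folds and cleaves the precursor of the 40S subunit, and a separate set of GTPases, helicases and scaffold proteins matures the 60S subunit. A resting T cell has small nucleoli, and the program is switched on as the cell grows after antigen receptor stimulation, with the transcription factor Myc as a major driver.

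The promoters were read for letters that known regulators recognise, in the 250 bases before each gene's start as RefSeq gives it (GRCm38.p6). Of the 48 members, 43 were in the promoter table; Npm1, Fbl, Bop1, Rrp12 and Rrs1 were not. The E-box CACGTG, the letters bound by Myc with Max, was in 3 of 43 (6.98%), against 6.86% of 27025 genes in the table and 10.1% of the 9540 tested genes in it. The ETS letters CCGGAAG, on either strand, were in 12 of 43 (27.9%), against 7.83% and 15.6%. TTCNNNGAA, a pattern that STAT factors and Bcl6 can share, was in 5 (11.6%, against 8.13% and 7.06%), and neither the NRF1 motif nor a further palindromic promoter element was in any (against 1.89% and 0.964% of tested genes). No match of one pattern overlapped a match of another in these windows. A match is a description of the letters and not evidence of binding.

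The 3 promoters with an E-box are shown because they are the members whose letters bear on Myc. The 250 bases before the start follow, 5′ to 3′ on the gene's strand, with each CACGTG in capitals.
Utp18 (GRCm38.p6 chr11:93885767-93886016, minus strand): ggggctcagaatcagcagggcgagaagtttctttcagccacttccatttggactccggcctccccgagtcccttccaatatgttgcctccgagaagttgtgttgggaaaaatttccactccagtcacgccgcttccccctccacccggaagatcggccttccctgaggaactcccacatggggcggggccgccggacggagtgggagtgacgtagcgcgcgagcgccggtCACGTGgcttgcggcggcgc
Rrn3 (GRCm38.p6 chr16:13780449-13780698, plus strand): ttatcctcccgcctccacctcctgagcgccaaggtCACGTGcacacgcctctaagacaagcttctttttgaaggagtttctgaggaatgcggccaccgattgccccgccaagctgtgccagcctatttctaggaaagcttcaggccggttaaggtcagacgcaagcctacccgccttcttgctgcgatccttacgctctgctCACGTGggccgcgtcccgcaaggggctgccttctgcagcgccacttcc
Nop2 (GRCm38.p6 chr6:125131633-125131882, plus strand): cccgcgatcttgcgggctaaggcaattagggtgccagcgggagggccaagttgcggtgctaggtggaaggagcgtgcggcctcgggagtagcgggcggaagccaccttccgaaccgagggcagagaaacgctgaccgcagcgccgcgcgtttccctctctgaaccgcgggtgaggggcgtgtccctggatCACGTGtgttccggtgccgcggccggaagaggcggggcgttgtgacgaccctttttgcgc

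No member passed the test between genotypes. By limma with Benjamini-Hochberg adjustment, 0 of 46 members had an adjusted p under 0.05, against 1.32% of all tested genes (0.646% with KO above WT and 0.671% with KO below), and the smallest adjusted p was 0.193, for Heatr1. At an unadjusted p under 0.05 there were 7 members, or 15.2%, against 16.6% of all tested genes. Of these, 4 were higher (8.7%, against 6.15%) and 3 lower (6.52%, against 10.5%). The median difference, KO minus WT, was -0.0063 over the members and -0.02 over all tested genes on the log2 scale, with 20 members above 0 (43.5%, against 41.1% of all tested genes), 24 below and 2 at exactly 0.

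The differences were small in size. They ran from -0.17 (Nip7) to 0.22 (Rrs1), 16 of 46 members (34.8%, against 32% of all tested genes) differed by 0.1 or more, and Rrs1 alone (2.17%, against 7.77%) by 0.2 or more. For 39 members, or 84.8% against 67.3% of all tested genes, the 95% interval of the difference lay inside a 1.2-fold change either way. Those whose interval reached past 1.2-fold were Nip7, Tsr1, Ddx10, Gar1, Bms1, Utp18 and Rrs1, and the intervals of all members together spanned -0.32 to 0.60. The spread between arrays of a genotype was likewise small, with a median within-group SD of 0.075 over the members and 0.093 over all tested genes. The probe sets of the members also read brighter, with a median mean signal of 11.28 against 9.32. The part of signal level in these contrasts with all tested genes was not tested.

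**Figure D1:**
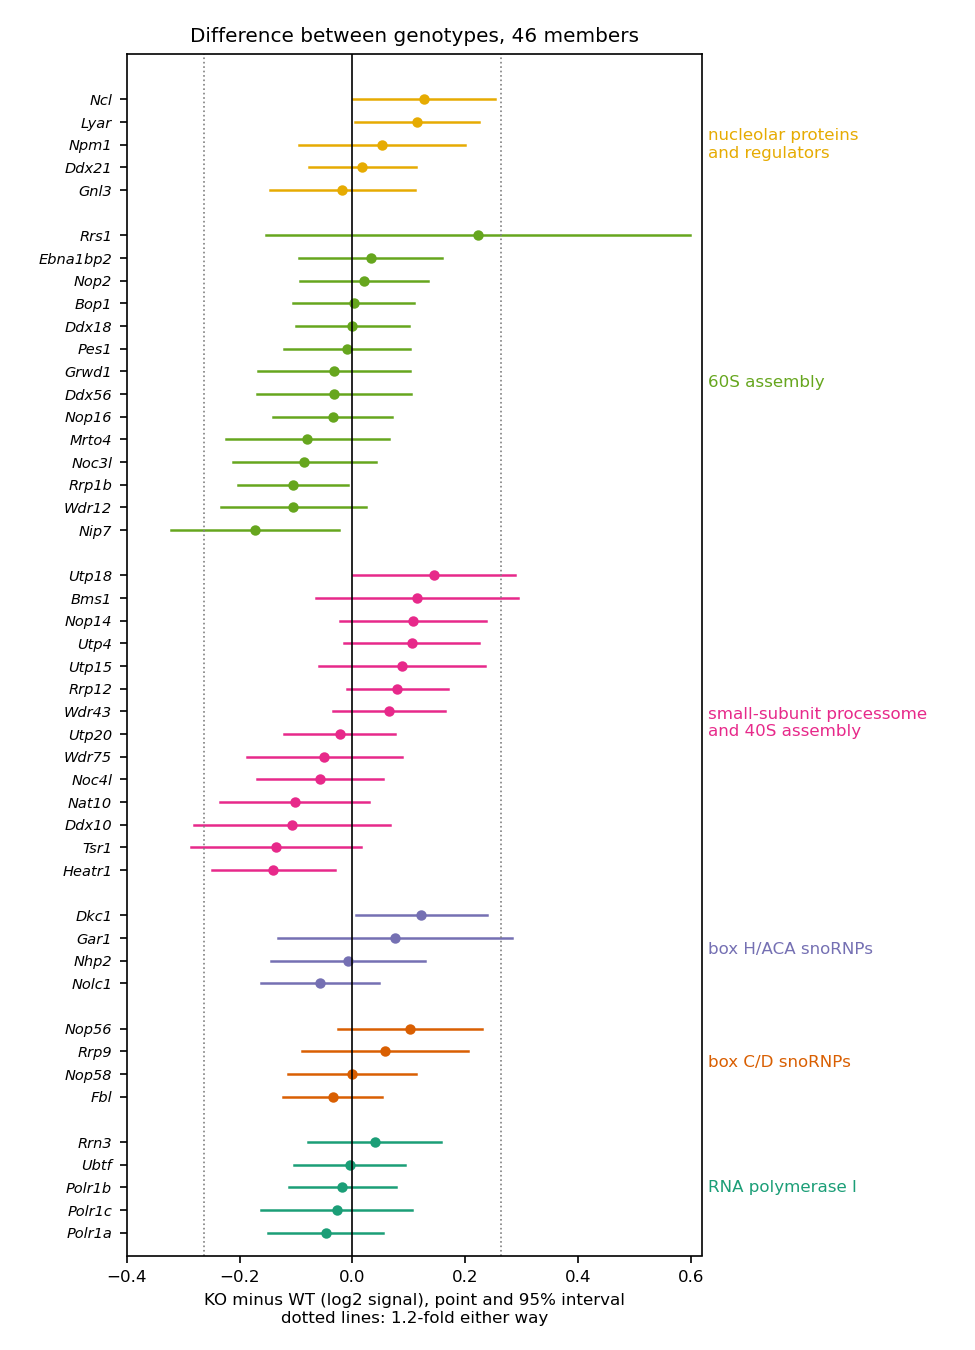
Difference between KO-labelled and WT-labelled arrays for each of the 46 members on the log2 scale (points, with 95% intervals from limma; n = 4 arrays of each genotype), grouped by role; dotted lines mark 1.2-fold. Most intervals cross 0, and Rrs1 has the widest.

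The groups did not overlap in 3 of 46 members (6.52%, against 10.8% of all tested genes). Heatr1 and Rrp1b were lower in every KO-labelled than in every WT-labelled array (7.66% of all tested genes were), and Rrp12 was higher (3.1% were).

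In the transcription machinery, Polr1a, the catalytic subunit of RNA polymerase I, read 10.86, 10.84, 10.87 and 10.92 in WT replicates 1 to 4 and 10.77, 10.81, 10.82 and 10.90 in KO replicates 1 to 4, a difference of -0.05 ± 0.0458 (SE; limma adjusted p = 0.683). Polr1b, the second-largest subunit, read 12.09, 12.17, 12.16 and 12.16 against 12.12, 12.09, 12.14 and 12.16, a difference of -0.02 ± 0.0426 (SE). The groups overlapped in both genes, and Polr1b varied by only 0.08 over the 8 arrays. Polr1c, a subunit shared with RNA polymerase III, differed by -0.03, Ubtf, the factor that binds the ribosomal DNA promoter, by -0.005 and Rrn3, which makes the polymerase competent to start, by 0.04. Of these 5 genes, 1 lay above 0 and 4 below, and their 95% intervals stayed between -0.16 and 0.16.

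Core proteins of the box C/D small nucleolar RNPs, which methylate ribosomal RNA, include Fbl, the methyltransferase fibrillarin. In the probe set that stood for it, Fbl was the steadiest member. It read 11.63, 11.61, 11.63 and 11.65 in WT replicates 1 to 4 and 11.60, 11.61, 11.58 and 11.59 in KO replicates 1 to 4, a range of 0.07 over all 8 arrays, and differed by -0.04 ± 0.0392 (SE; limma adjusted p = 0.743). Its second probe set varied more, from 10.87 in WT replicate 2 to 11.24 in KO replicate 4, and differed by 0.13, the opposite sign. Nop56, a scaffold protein of these particles, read 12.82, 12.90, 12.98 and 12.90 against 12.90, 12.96, 13.08 and 13.07, with overlapping groups and a difference of 0.10 ± 0.0573 (SE; limma adjusted p = 0.425). The paired scaffold Nop58 had the same mean, 11.77, in both groups (95% interval -0.11 to 0.11), and Rrp9, which binds the U3 RNA, differed by 0.06.

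The box H/ACA particles turn uridine into pseudouridine, and Dkc1 encodes their enzyme, dyskerin. Dkc1 read 11.61, 11.61, 11.60 and 11.72 in WT replicates 1 to 4 and 11.67, 11.76, 11.84 and 11.76 in KO replicates 1 to 4, a difference of 0.12 ± 0.0519 (SE; unadjusted p = 0.0404, limma adjusted p = 0.273). WT replicate 4 alone reached into the range of the KO-labelled arrays. Nolc1, which binds these particles and moves between nucleolus and Cajal bodies, read 11.99, 12.03, 12.11 and 11.96 against 11.94, 11.99, 11.98 and 11.95, a difference of -0.06 ± 0.0469 (SE; limma adjusted p = 0.62). The core subunits Nhp2 and Gar1 differed by -0.0075 and 0.08. The interval of Gar1, -0.13 to 0.28, was among the wider ones.

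Of the 14 members of the small-subunit processome and 40S assembly, 7 lay above 0 and 7 below, 1 of each with an unadjusted p under 0.05. Heatr1, a large scaffold of the complex that binds the nascent transcript, read 11.66, 11.77, 11.83 and 11.80 in WT replicates 1 to 4 and 11.59, 11.64, 11.62 and 11.65 in KO replicates 1 to 4. The KO-labelled values all lay lower, by 0.01 at the nearest pair, with a difference of -0.14 ± 0.0491 (SE; unadjusted p = 0.0175, limma adjusted p = 0.193). Utp4, a partner of Heatr1 in that complex, went the other way, with 12.45, 12.57, 12.56 and 12.58 against 12.54, 12.65, 12.69 and 12.70 (0.11 ± 0.0533, SE; limma adjusted p = 0.367). The further partners Utp15, Wdr43 and Wdr75 differed by 0.09, 0.07 and -0.05.

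Utp18, a protein of the UTP-B complex of the processome, read 10.58, 10.59, 10.48 and 10.46 in WT replicates 1 to 4 and 10.51, 10.77, 10.73 and 10.68 in KO replicates 1 to 4. KO replicates 2 to 4 lay above every WT-labelled array and KO replicate 1 among them, and the difference was 0.15 ± 0.0644 (SE; unadjusted p = 0.0484, limma adjusted p = 0.296). Nop14, a core protein of the processome, also had KO replicates 2 to 4 above every WT-labelled array but KO replicate 1 below them all, with 10.84, 10.87, 10.87 and 10.88 against 10.81, 11.00, 11.03 and 11.05 (0.11 ± 0.058, SE; limma adjusted p = 0.405). Its binding partner Noc4l differed by -0.06, and the GTPase Bms1 by 0.12.

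Later factors of 40S maturation did not pass the test either. Tsr1, a GTPase-like protein of late 40S precursors, read 11.04, 11.10, 11.04 and 11.20 against 10.79, 10.96, 11.04 and 11.05, a difference of -0.14 ± 0.0674 (SE; limma adjusted p = 0.359). Rrp12, a HEAT-repeat protein of subunit export, read 10.20, 10.18, 10.23 and 10.19 against 10.25, 10.30, 10.30 and 10.27, and its difference of 0.08 ± 0.0404 (SE; limma adjusted p = 0.366) did not pass although the groups were apart. The RNA acetyltransferase Nat10 and the helicase Ddx10 differed by -0.10 and -0.11 and the processome protein Utp20 by -0.02.

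Of the 14 tested members of 60S assembly, 4 lay above 0, 9 below and 1 at 0, and both of those with an unadjusted p under 0.05 were lower. Rrp1b, a nucleolar protein of 60S processing, read 11.47, 11.56, 11.51 and 11.53 in WT replicates 1 to 4 and 11.37, 11.44, 11.39 and 11.45 in KO replicates 1 to 4, with no overlap (-0.11 ± 0.0437, SE; unadjusted p = 0.0376, limma adjusted p = 0.263). Nip7, a small RNA-binding factor, read 10.30, 10.16, 10.10 and 10.21 against 9.89, 9.99, 10.04 and 10.16 (-0.17 ± 0.0669, SE; unadjusted p = 0.0278, limma adjusted p = 0.234). KO replicate 4 overlapped the WT-labelled values of Nip7.

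The 3 proteins of the PeBoW complex, which is needed to process the 60S precursor RNA, were Pes1 (-0.01), Bop1 (0.0025) and Wdr12. Wdr12 read 11.16, 11.20, 11.13 and 11.20 against 10.92, 11.07, 11.12 and 11.16 (-0.11 ± 0.0577, SE; limma adjusted p = 0.416), and its second probe set differed by 0.015, so the sign rests on the probe set. Nop16, a 60S assembly protein, read 12.40, 12.32, 12.29 and 12.35 against 12.24, 12.31, 12.30 and 12.37, a difference of -0.04 ± 0.0473 (SE; limma adjusted p = 0.797). The helicase Ddx18 had equal means in both groups in the probe set that stood for it, and its second probe set differed by 0.03. The RNA methyltransferase Nop2 differed by 0.02.

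Rrs1, which helps to bring the 5S ribonucleoprotein into the 60S precursor, varied most between arrays of all members. It read 9.21, 9.36, 9.45 and 9.61 in WT replicates 1 to 4 and 9.14, 9.62, 9.68 and 10.08 in KO replicates 1 to 4, a range of 0.94. The lowest and the highest of its 8 values were both from KO-labelled arrays, and the difference of 0.22 ± 0.168 (SE; limma adjusted p = 0.586) had an interval from -0.15 to 0.60. The other 60S members, Mrto4, Noc3l, Grwd1, Ddx56 and Ebna1bp2, differed by -0.08, -0.09, -0.03, -0.03 and 0.03. Both probe sets of Mrto4 were below 0.

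Of the 5 abundant or regulatory nucleolar proteins, 4 lay above 0 and 1 below. Ncl, the multifunctional RNA-binding protein nucleolin, read 13.08, 12.99, 12.93 and 13.03 in WT replicates 1 to 4 and 13.01, 13.19, 13.18 and 13.16 in KO replicates 1 to 4 (0.13 ± 0.0562, SE; unadjusted p = 0.0472, limma adjusted p = 0.292). Lyar, a zinc finger protein of the nucleolus, read 11.11, 11.12, 11.14 and 11.19 against 11.15, 11.28, 11.30 and 11.29 (0.12 ± 0.0492, SE; unadjusted p = 0.0418, limma adjusted p = 0.277). In both genes KO replicate 1 lay among the WT-labelled arrays and the other KO-labelled arrays above all of them. The histone chaperone nucleophosmin, Npm1, differed by 0.05 (95% interval -0.10 to 0.20), the helicase Ddx21 by 0.02 and the GTPase nucleostemin, Gnl3, by -0.02. A further 3 probe sets, shared by Npm1 and a predicted gene and so not named for Npm1 alone, differed by 0.10 to 0.11.

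**Figure D2:**
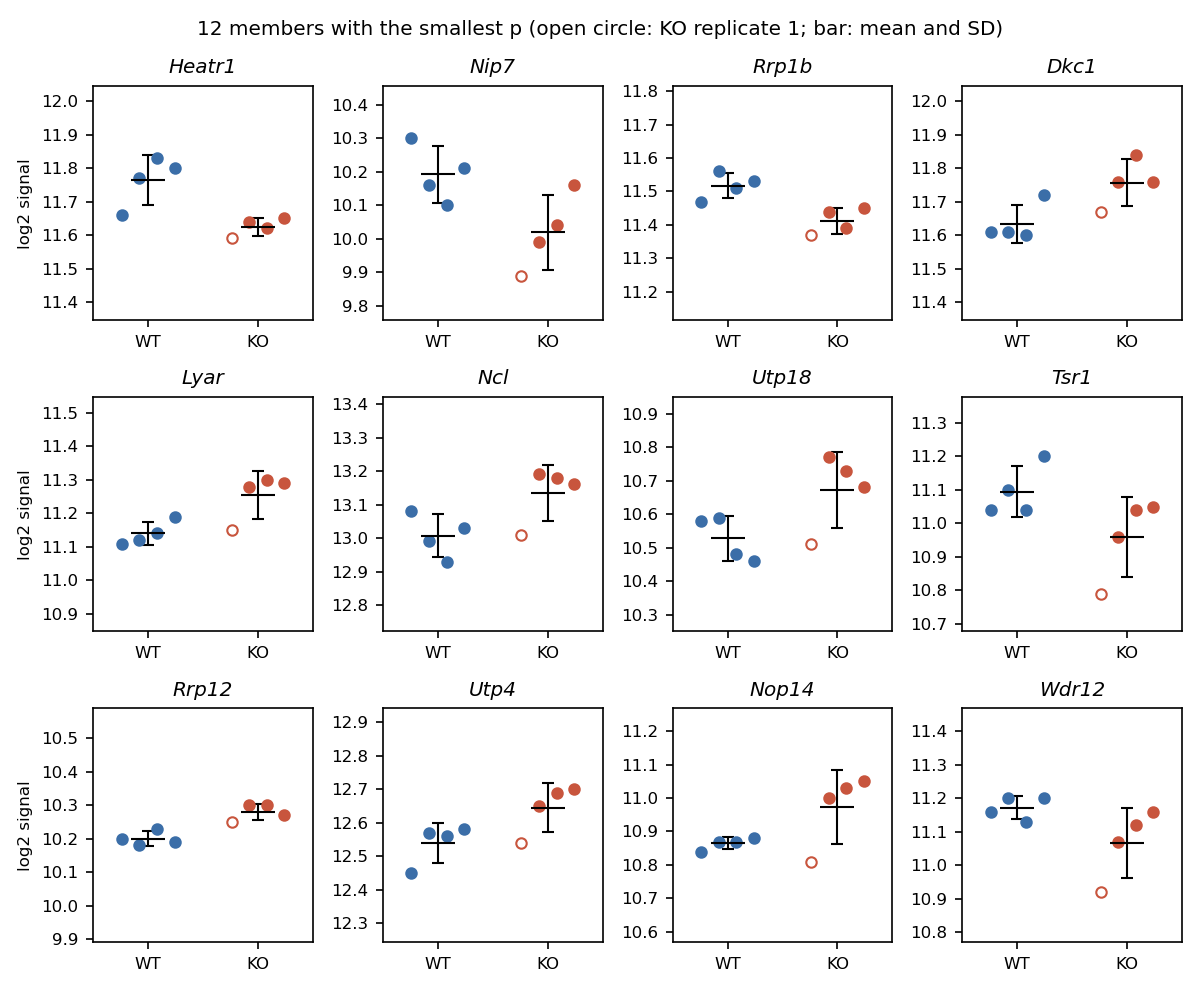
Log2 signal in each array for the 12 members with the smallest p (points, in replicate order; bars, mean and SD; n = 4 arrays per genotype; KO replicate 1 as an open circle), every panel spanning the same range. Heatr1, Rrp1b and Rrp12 have no overlap between genotypes, in Utp18, Ncl and Lyar the open circle lies among the WT-labelled values, and in Nop14 below them.

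The members deviated together in single arrays. In KO replicate 1, 44 of 46 members (95.7%, against 66.6% of all tested genes) lay below their mean over the 8 arrays, the exceptions being Rrp9 and Rrp12, and 28 (60.9%, against 39.6%) had their lowest value there. The median deviation in that array was -0.09 for the members and -0.06 for all tested genes. In KO replicate 4, the opposite end, 40 members (87%, against 57.7%) lay above their mean, with a median deviation of 0.05 against 0.02. In KO replicate 1 all 14 of the 60S members lay below their mean, and 13 had their lowest value there. All members of the RNA polymerase I, box H/ACA and nucleolar protein groups lay below their mean there too. Fewer of these had their lowest value there: 3 of 5, 1 of 4 and 1 of 5. Of the 14 small-subunit members, 13 lay below their mean and 9 had their lowest value there.

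**Figure D3:**
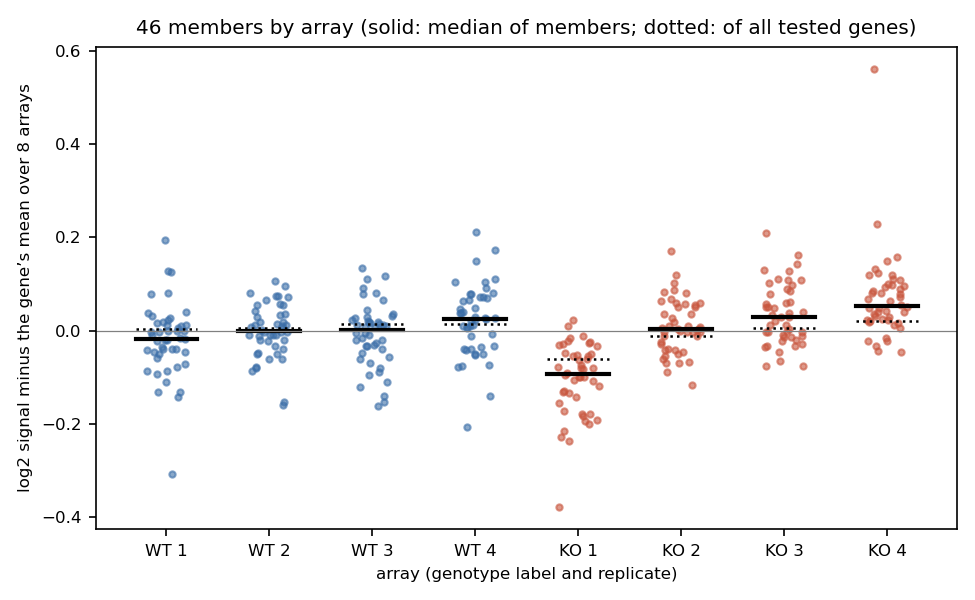
Deviation of each member from its own mean over the 8 arrays, by array (points, n = 46 members; solid bar, median of the members; dotted bar, median of all tested genes; log2 units). KO replicate 1 has the lowest median of the members (-0.09) and KO replicate 4 the highest (0.05).

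Without KO replicate 1, 2 members rose in the KO-labelled arrays and none fell, 4.35% of the members against 6.56% of all tested genes (3.88% higher and 2.67% lower). They were Nop14 (0.16 ± 0.0392, SE; limma adjusted p = 0.0419) and Utp18 (0.20 ± 0.0497, SE; limma adjusted p = 0.0457), with 3 KO-labelled arrays left. At an unadjusted p under 0.05, 11 members were then higher (23.9%, against 13.7%) and 1, Heatr1, lower (2.17%, against 13.5%). The median difference of the members moved from -0.0063 to 0.02, with 30 of 46 above 0 (65.2%, against 45.2% of all tested genes). The groups were then apart, with KO above WT, in 12 members (26.1%, against 11.3% of all tested genes): Dkc1, Utp4, Utp15, Utp18, Wdr43, Nop14, Bms1, Rrp12, Rrs1, Ncl, Npm1 and Lyar. Heatr1 and Rrp1b were apart with KO below WT (4.35%, against 11.2%). These 12 and the opposite pair were counted after the values were seen. Leaving out KO replicate 4 instead moved the members down, to a median of -0.02, with 17 above 0 and 29 below. The median of all tested genes was then -0.02 too. No member passed in that fit. At an unadjusted limma p under 0.05, 0 members were higher and 5 lower. Of all 11926 tested genes, 1878 had such a p, higher and lower together. Their split by direction is not given here, so the 5 cannot be set against a share of lower genes.

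With limma's array weights, which gave KO replicate 1 the lowest weight (0.176) and WT replicate 2 the highest (3.32), 7 members passed as higher, against 8.47% of all tested genes, and 1 as lower, against 8.13%. Those higher were Bms1, Dkc1, Lyar, Ncl, Nop14, Rrs1 and Utp18, with differences from 0.15 (Nop14) to 0.34 (Rrs1), and Heatr1 was lower (-0.13, limma adjusted p = 0.0444). Neither call of the fit without KO replicate 1 held when WT replicate 3 was left out as well, where the smallest adjusted p of a member was 0.0793 (Nop14). Without KO replicate 1 alone, Rrs1 had the largest difference of the members, 0.39 (limma adjusted p = 0.0784).

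**Figure D4:**
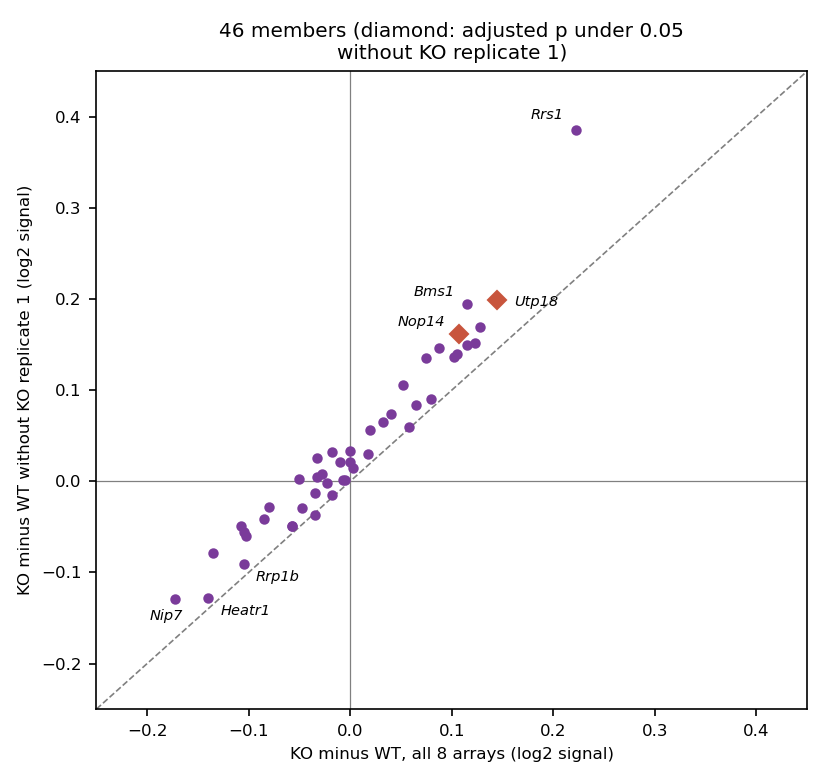
Difference between KO-labelled and WT-labelled arrays for the 46 members with all 8 arrays (horizontal axis) and without KO replicate 1 (vertical axis), in log2 units; the dashed line marks equal values. Most points lie above the line, and Nop14 and Utp18 (diamonds) pass an adjusted p of 0.05 without that array.

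Other genes of the pathway were counted by list. Of 19 tested genes of RNA polymerase I and its factors, 48 of small-subunit assembly, 49 of large-subunit assembly, 13 of snoRNP assembly, 20 of RNA polymerase III and 7 of the nucleolar stress axis, none passed by limma, with medians of 0.04, -0.02, -0.01, 0.04, -0.03 and 0.01; at an unadjusted p under 0.05 these lists held 10 genes that were higher (6.41%, against 6.15% of all tested genes) and 14 that were lower (8.97%, against 10.5%). Tsr2, a chaperone of the ribosomal protein eS26, came nearest: it read 9.59, 9.58, 9.55 and 9.58 in WT replicates 1 to 4 and 9.71, 9.84, 9.80 and 9.89 in KO replicates 1 to 4, with no overlap (0.24 ± 0.049, SE; limma adjusted p = 0.0518). Tsr2 passed without KO replicate 1 (limma adjusted p = 0.00916). It missed the threshold when any other single array was left out (limma adjusted p of 0.0917 to 0.168) and with the replicate number as a block (0.119). Emg1, which methylates 18S rRNA, differed by -0.18 (limma adjusted p = 0.103) and Brf1, an initiation factor of RNA polymerase III, by -0.27 (limma adjusted p = 0.101).

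In the other lists the genes with the smallest p were Polr2f (0.18, limma adjusted p = 0.112) and Tcof1 (-0.14, 0.168) for RNA polymerase I, Ddx54 (-0.14, 0.153) and Urb2 (0.13, 0.227) for large-subunit assembly, and Znhit3 (0.28, 0.186) and Coil (-0.19, 0.242) for snoRNP assembly. Maf1, the repressor of RNA polymerase III, differed by -0.15 (limma adjusted p = 0.151), the ribosomal protein gene Rps7 by -0.19 (0.0931) and Rps27l by -0.15 (0.187).

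In the list of rRNA trimming and exosome genes, 1 of 28 rose (3.57%, against 0.646% of all tested genes), none fell and 22 lay above 0 (78.6%, against 41.1%; median 0.03). The gene that rose was Pop4, a protein subunit of the ribonucleases P and MRP, which cut transfer RNA and ribosomal RNA precursors. Pop4 read 11.33, 11.28, 11.32 and 11.13 in WT replicates 1 to 4 and 11.52, 11.55, 11.53 and 11.61 in KO replicates 1 to 4, a difference of 0.29 ± 0.055 (SE; limma adjusted p = 0.0453). That call held without KO replicate 1 (0.0179) and was lost when any other single array was left out (limma adjusted p of 0.0604 to 0.152, differences of 0.24 to 0.31), with each array centred on its median (0.0596), with no filter (0.0989) and with the replicate number as a block (0.119). Rexo5, an RNA exonuclease, differed by 0.35 (limma adjusted p = 0.144).

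Myc, the transcription factor known to drive ribosome biogenesis, read 12.79, 12.88, 12.92 and 12.72 in WT replicates 1 to 4 and 12.79, 12.78, 12.78 and 12.76 in KO replicates 1 to 4, a difference of -0.05 ± 0.0522 (SE; limma adjusted p = 0.715). Its partner Max read 11.53, 11.46, 11.44 and 11.53 against 11.40, 11.47, 11.40 and 11.48 (-0.05 ± 0.0457, SE; limma adjusted p = 0.645). The groups overlapped in both. None of 13 tested genes of the Myc network passed, and 4 lay above 0. Mxd1 and Mxd4, which compete with Myc for Max, had the smallest p and no overlap: Mxd1 differed by -0.28 ± 0.0607 (SE; limma adjusted p = 0.0605) and Mxd4 by -0.30 ± 0.0729 (SE; limma adjusted p = 0.0782). Mxd1 passed without KO replicate 1 (limma adjusted p = 0.027). It missed the threshold when any other single array was left out (limma adjusted p of 0.0594 to 0.215).

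Cytosolic ribosomal protein genes, whose products the members assemble, had a median of -0.05, with 38 of 54 below 0 and none past the test. At an unadjusted p under 0.05, 14 of them were lower (25.9%, against 10.5% of all tested genes) and 0 higher (against 6.15%). Rps29 had the smallest p (-0.25, limma adjusted p = 0.0507).

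**Figure D5:**
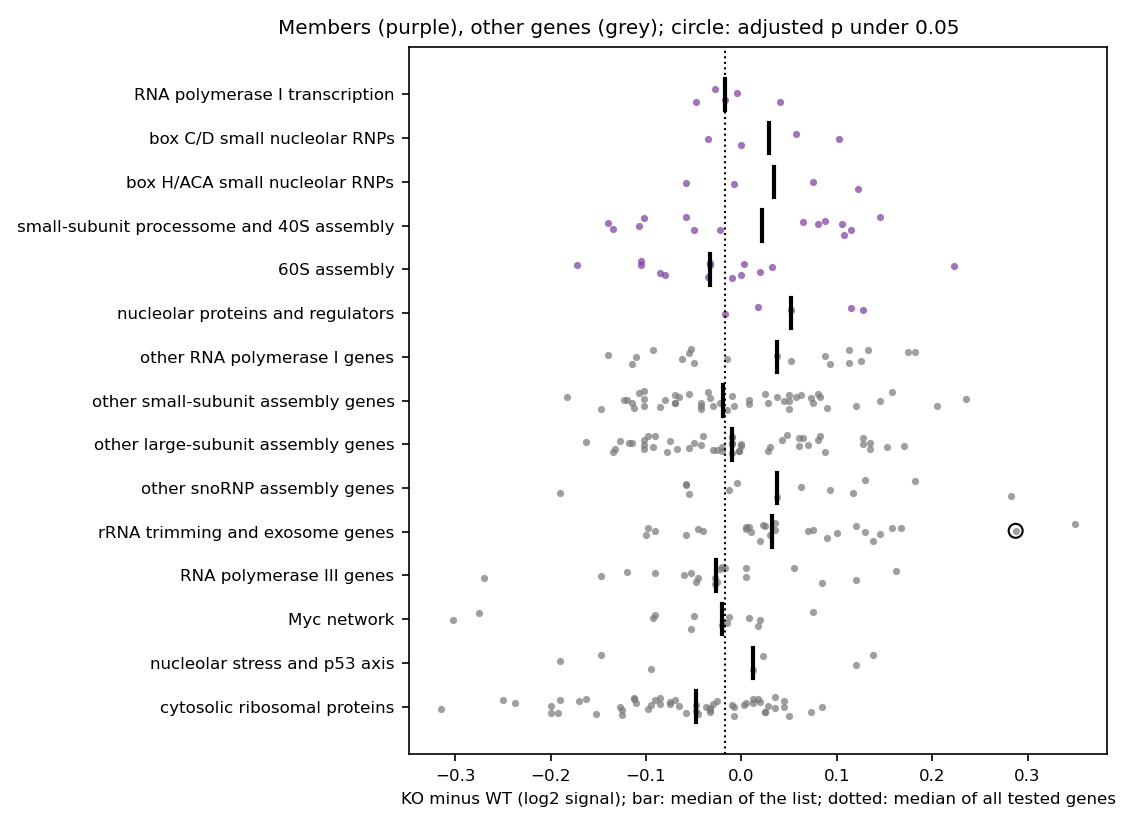
Difference between KO-labelled and WT-labelled arrays (log2 units) for the members by role (purple) and for other genes of the pathway by list (grey); each point is 1 gene, bars are list medians, the dotted line is the median of all tested genes (-0.02) and the circle marks Pop4, which passed an adjusted p of 0.05. Medians lie between -0.05 and 0.05.

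Several members carry small nucleolar RNAs inside their own genes, and 19 such RNAs lay within 7 members in the RefSeq mouse gene table (GRCm38.p6), without regard to strand. On the array, 4 had a probe set of their own, and none passed by limma, with 1 at an unadjusted p under 0.05. Snord53, inside Wdr43, read 10.62, 10.89, 10.72 and 10.50 in WT replicates 1 to 4 and 10.91, 10.86, 10.89 and 11.03 in KO replicates 1 to 4, a difference of 0.24 ± 0.0804 (SE; unadjusted p = 0.0139, limma adjusted p = 0.171) against 0.07 for its host. The groups overlapped. Snord57, inside Nop56, differed by 0.16 (limma adjusted p = 0.651) and Snora75, inside Ncl, by 0.09 (0.611).

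In the promoters printed above the E-box began 20 bases before the start in Utp18, 60 bases before it in Nop2, and 215 and 48 bases before it in Rrn3. Utp18, Nop2 and Rrn3 differed by 0.15, 0.02 and 0.04 between genotypes, and none passed over the 8 arrays, while Utp18 passed without KO replicate 1. Utp18 and Nop2 also hold the ETS letters. Heatr1 and Nip7, the members with the smallest p, hold the ETS letters and no E-box. The next by p, Rrp1b, Dkc1, Lyar and Ncl, hold neither. Heatr1 and Nip7 lay below 0, while Utp18 and Utp4 (0.11), which also hold the ETS letters, lay above it. A link between the letters and the differences was not tested.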

How the data were processed

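Messenger RNA was measured on Affymetrix whole-transcript arrays, from 100 ng of total RNA per sample, 4 WT and 4 KO, grouped by the sample titles. The authors deposited log2 values, 1 per probe set and array; RMA and Partek are named in the submitters' processing notes, with no version, and the genome build is not given in the sources used here. RMA brings the arrays to a common scale, so a shift in the RNA content of whole cells is not measured. Nor can fewer cells of a type be told from less RNA per cell. The deposited values were not wholly equal between arrays. Their array medians ran from 7.35 in KO replicate 4 to 7.42 in KO replicate 1 (log2 signal). Levels are not compared between genes, since probe sets differ in brightness. The number of arrays limits the precision.

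Of 35556 probe sets, 21789 had 1 gene symbol in the platform annotation, 1621 several and 12146 were not listed there. The probe set with the highest mean stood for a gene. Genes entered where the value was above the 40th percentile of the array, taken over probe sets with 1 symbol, in at least 4 arrays; Bcl6 was always kept. The genotypes were tested by lmFit and eBayes of limma 3.58.1 (R 4.3.3; no block, two-sided, Benjamini-Hochberg over 11926 genes, threshold 0.05); steps were tested on simulated data. Errors are SE of the difference unless named SD, and 95% intervals are limma's, unadjusted. By this test 157 genes passed, 77 higher and 80 lower (48 and 30 after centring every array on its own median).

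Members and lists were chosen with earlier results of these data known, so lists are described by counts and medians, without a set test. Array values are given for members past the threshold, the 12 with the smallest p, and in each role group the member with the smallest p and that with the highest mean (Rrs1 and Fbl were added after their values were seen, for their spread, as were the sets apart without KO replicate 1); of other lists, genes past the threshold or up to 2 with the smallest p are named, with array values for Pop4, Tsr2, Myc and Max and differences for the rest. Small nucleolar RNAs were assigned to a host by containment, without strand. Alternatives changed the normalization, the filter, the prior, the weights, the probe-set rule, the block and the arrays kept. Protein sequences are not used here.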

Additional observations from a re-analysis of the deposited data

Results flagged for a closer look

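Groups of 4 values were screened for the members, the means of their role groups and of all of them, Myc, Max and Bcl6. In 11 of 112 such groups 1 array lay far from the other 3 (log2 signal), where 1 in 20 by chance gives about 5.6. These groups are not independent: the means are built from the members, and the members deviated together in single arrays. The 11 against 5.6 therefore does not measure an excess. WT replicate 1 was low in Polr1b (12.09, the others 12.16 to 12.17), Utp4 (12.45), Noc3l (10.75) and Ddx21 (12.51). WT replicate 4 was low in Rrp9 (10.81, the others 11.03 to 11.07) and high in Dkc1 (11.72, the others 11.60 to 11.61), and WT replicate 3 was low in Npm1 (12.43). KO replicate 1 was low in Ncl (13.01, the others 13.16 to 13.19), in Lyar (11.15) and in the mean of the abundant nucleolar proteins and regulators (12.124, the others 12.268 to 12.284). KO replicate 4 was high in Nhp2 (11.30, the others 11.18 to 11.20).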

How the results depend on the processing

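Of the alternative fits run, members passed only with array weights (7 higher, 1 lower) and without KO replicate 1 (2 higher), and over all 8 arrays none passed at thresholds of 0.1 and 0.01; leaving out single arrays otherwise gave 0, so the range was 0 to 2 higher and 0 to 0 lower. The count over all genes, 157, was 322 with another quantile normalization, 78 with each array centred on its median, 58 with no filter, 354 with an intensity trend and robust prior, 1980 with array weights, 443 without KO replicate 1 and WT replicate 3 together, and 468 and 27 at thresholds of 0.1 and 0.01; leaving out 1 array gave 31 to 782. With the filter percentile taken over all probe sets or over the genes, chosen after seeing the data, it was 111 and 141. The median difference of the members stayed between -0.02 and 0.02 in all of these fits, and its sign was not the same in each. It moved by less than 0.041, the pooled within-genotype SD of the members' median signal in each array. That SD includes KO replicate 1. The causes were not tested. Arrays of the same replicate number correlated at 0.011, 0.145, -0.17 and 0.308 in their deviations from the group means. The labels do not say whether the numbers pair the arrays, and these correlations cannot settle it. With the replicate block 36 genes and 0 members passed, and Pop4 did not (limma adjusted p = 0.119). With 4 arrays a genotype, a p that misses the threshold does not show equal levels; the intervals bound the difference.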
